A study of Mus musculus with 23 samples.

Results

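Colon of Fn14 knockout mice given repeated rectal trinitrobenzene sulfonic acid (TNBS) was compared with colon of untreated Fn14 knockout mice. The samples were taken by their labels, which give genotype and treatment, and came to 12 of the 23 arrays of the study, 7 with TNBS and 5 untreated. The other 11 arrays were wild type, 6 with TNBS and 5 untreated, and were used to test where the change in the knockout differed from that in the wild type. All mice were on the BALB/c background, and the Fn14 knockout is shared by both groups compared. TNBS at 0.2% in equal parts of phosphate-buffered saline and ethanol was injected rectally over 6 weeks, at first 1.0 and at last 2.0 ul of solution for each g the mouse weighed. Colon was taken 3 days after the last injection, and total RNA was measured on Affymetrix arrays, with values on a log2 scale. The labels do not say whether untreated mice received the ethanol vehicle, so TNBS and its vehicle cannot be told apart. They give neither sex nor age, and do not say that each array is a separate mouse, so the p-values measure only the spread between these arrays.

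Fn14, encoded by Tnfrsf12a, is the receptor of TWEAK, a cytokine of the tumour necrosis factor family, and signals to NF-kappaB in epithelial and stromal cells after injury. TNBS is a hapten: ethanol opens the mucosal barrier, TNBS binds proteins of the colon wall, and repeated dosing gives a chronic colitis with lymphocytes, macrophages and fibrosis. Type I interferons raise antiviral genes through the interferon-stimulated response element, to which a complex holding IRF9 binds. Interferon gamma acts through the gamma-activated site and induces the guanylate-binding proteins (GBPs) and the immunity-related GTPases (IRGs). Mucosal mast cells sit within the epithelium and store chymases that the Mcpt genes encode.

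The groups of genes with the largest shares that rose were 2 groups of interferon-induced genes, and promoter windows of some of their members are shown first. The windows of 60 bases are from RefSeq promoters on build GRCm38.p6, in the gene's direction of transcription, with capitals marking each match to the core of the interferon-stimulated response element (the letters GAAA, any 2 bases and GAAA again) or to its reverse complement. They were taken from members that rose and hold a match, to show the match in both groups. Of the type I interferon-stimulated genes, Ifit1 lies at chr19:34640760-34640819 on the plus strand, Oas3 at chr5:120777700-120777759 on the minus strand, Ifit3 at chr19:34583348-34583407 on the plus strand and Rsad2 at chr12:26456538-26456597 on the minus strand. Of the GTPases, Gbp3 lies at chr3:142559974-142560033, Gbp2 at chr3:142620579-142620638, Irgm2 at chr11:58214888-58214947 and Gbp7 at chr3:142530258-142530317, all on the plus strand.
Ifit1: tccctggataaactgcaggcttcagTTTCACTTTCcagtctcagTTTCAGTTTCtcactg
Oas3: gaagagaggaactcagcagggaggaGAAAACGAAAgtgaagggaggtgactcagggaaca
Ifit3: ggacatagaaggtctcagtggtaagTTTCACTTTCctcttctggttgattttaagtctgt
Rsad2: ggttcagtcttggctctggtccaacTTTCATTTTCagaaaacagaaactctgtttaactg
Gbp3: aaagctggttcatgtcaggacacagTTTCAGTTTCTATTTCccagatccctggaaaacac
Gbp2: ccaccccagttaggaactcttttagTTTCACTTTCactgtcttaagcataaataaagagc
Irgm2: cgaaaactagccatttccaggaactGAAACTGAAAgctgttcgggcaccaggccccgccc
Gbp7: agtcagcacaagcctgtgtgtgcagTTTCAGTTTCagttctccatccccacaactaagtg

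This core was searched on both strands in the 250 bases before the start of each of 27025 mouse genes, and 3.46% held a match. Of the 21 type I interferon-stimulated genes measured, 16 had a promoter entry and 7 of those held 1 or more. Of the 10 GTPases, 7 had an entry and 6 did. The letters TTCNNNGAA of the gamma-activated site, which can overlap the first motif, were in 8.13% of all promoters, in 3 of the 16 and in 3 of the 7. A match is a description of the letters and not a bound site.

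Tnfrsf12a itself checked the genotype. It read 4.17, 4.10, 4.11, 4.17 and 4.03 on the untreated knockout arrays and 3.84 to 4.17 with TNBS, against 5.86 to 7.16 in untreated and 6.77 to 8.25 in treated wild type. All 12 knockout arrays lay below all 11 wild-type arrays, and TNBS left no difference in the knockout that passed the test (log2 change -0.05 ± 0.21 SE, limma adjusted p = 1). Arrays within a group correlated at 0.989 to 0.998 over all genes. The difference between the 3' and 5' probe sets of Gapdh, a measure of RNA integrity, was 1.01 ± 0.05 untreated (SD, n = 5) and 0.943 ± 0.031 with TNBS (SD, n = 7; exact permutation test, two-sided p = 0.0139, adjusted p = 0.0556 over 4 measures). The markers of colon epithelium were high throughout, the mean of the absorptive transport list being 10.69 to 10.95 on the 12 arrays.

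Markers of stratified squamous epithelium, which lines the anal canal, were at unequal levels. The mean of the 21 marker genes was 6.49, 3.93, 4.39, 4.54 and 5.56 untreated, and 8.10, 8.08, 5.88, 8.59, 5.80, 8.13 and 4.92 with TNBS. TNBS arrays 1, 2, 4 and 6, called the squamous-high arrays below, lay above every untreated array, and the other 3 lay under the highest of them. The markers that moved included Krt14, a keratin of basal squamous cells, at 3.60 to 7.67 untreated and 6.41 to 10.61 with TNBS (log2 change 3.21 ± 0.80 SE, limma adjusted p = 0.0163, and 0.0518 without untreated array 2). With the Gapdh difference as a covariate Krt14 changed by 1.80 (adjusted p = 0.136). All 21 squamous genes had a log2 change above 0 (median 2.13), and 18 had an unadjusted limma p under 0.05. At an adjusted p under 0.05, 5 of the 21 rose. With 1 array left out, any but TNBS array 3, the count was 1 to 3, except 8 without untreated array 1 and 13 without TNBS array 7. Skeletal muscle markers ran from 5.45 to 7.42 untreated and from 4.65 to 7.74 with TNBS, and none of the 18 passed the limma test, adjusted or at an unadjusted p under 0.05 (0 genes). The labels do not say whether the samples held squamous tissue, and its part in the results below was not tested. Counts without those 4 arrays (3 against 5), an alternative added after the data had been seen, are given with most list counts below, and have fewer arrays behind them. Counts with the squamous mean or the Gapdh difference as a covariate, the 2 covariate fits, are given where they differ most. The squamous list itself had 0 calls in all 3.

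Of 18194 genes, 743 rose with TNBS in the knockout (4.08%) and 813 fell (4.47%) at a limma adjusted p under 0.05, 8.55% in all. The rises were the larger changes. The median rise was 0.72 and the median fall was -0.32 on the log2 scale, while the median over all genes was 0.00. A change of at least 1 was seen for 238 rising genes (1.31%) and 24 falling genes (0.132%). The 2 groups did not overlap for 704 genes (3.87%): every TNBS array lay above every untreated array for 359 (1.97%) and below for 345 (1.90%). Leaving out 1 array gave between 1014 genes (without untreated array 3) and 1835 (without TNBS array 7), and leaving out the 4 arrays high in squamous markers gave 510.

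In the wild type 1858 genes rose (10.2%) and 1140 fell (6.27%). The rises shared by both genotypes numbered 514, which was 69.2% of the knockout's and 27.7% of the wild type's. The shared falls numbered 218, or 26.8% of the knockout's and 19.1% of the wild type's. The difference between the 2 effects was tested directly and passed for 363 genes (2.00%), of which 113 (0.621%) were higher in the knockout and 250 (1.37%) lower. Of the 113, 44 rose in the knockout and did not pass in the wild type, and 62 fell in the wild type and did not pass in the knockout. Of the 250, 154 rose in the wild type without passing in the knockout. This split moves with the scaling. Centring each array on its median shifted the median gene's wild-type change to -0.17 and its difference to 0.14, and then 441 genes were higher and 106 lower in the knockout, or 80.6% higher against 31.1% as deposited. Quantile normalization gave 53.6% higher of 317. The count itself ran from 213 (without untreated knockout array 4) to 443 with 1 array left out, and was 238 without untreated wild-type array 1.

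**Figure D1:**
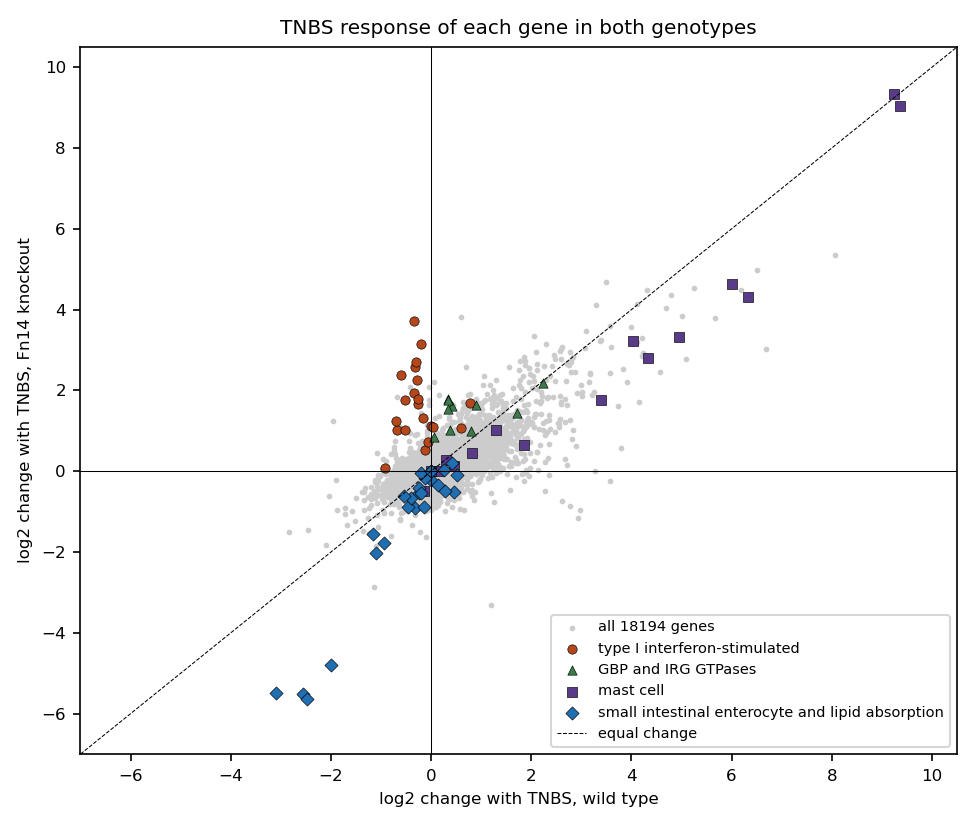
Each point is 1 gene, with its log2 change with TNBS in the wild type on the x axis and in the Fn14 knockout on the y axis. Colours and shapes mark 4 gene lists over all genes in grey, and the dashed line marks equal change. Type I interferon-stimulated genes lie above the line at wild-type changes near 0, and the mast cell genes Mcpt1 and Mcpt2 lie far out along it, at 9.33 and 9.05 in the knockout.

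**Figure D2:**
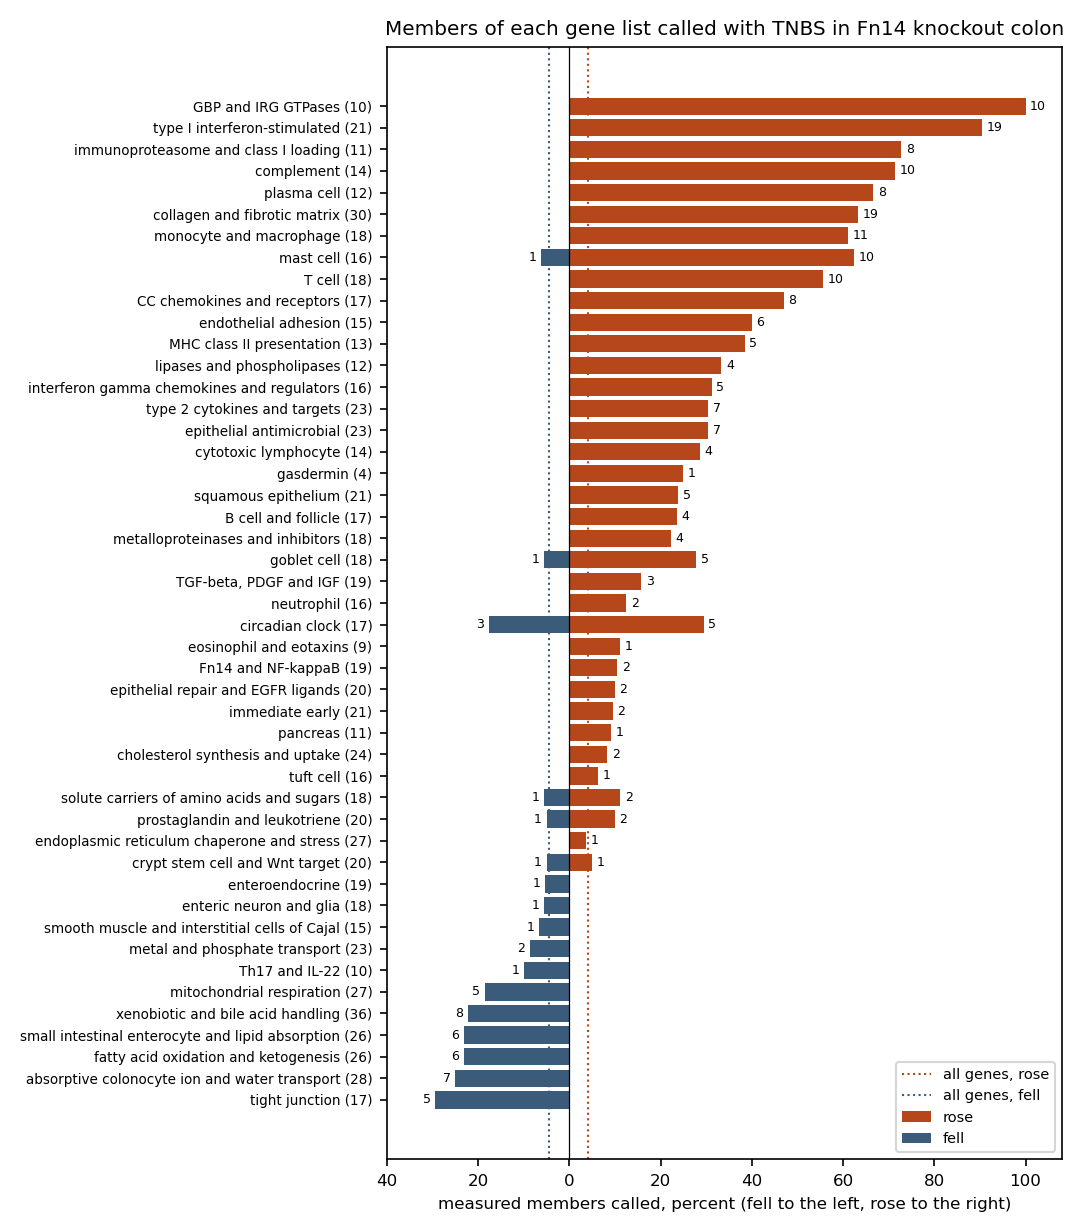
Bars give, for each gene list with at least 1 call, the percent of measured members (number in brackets) that rose, to the right, or fell, to the left, with TNBS in the knockout at a limma adjusted p under 0.05, with the number of genes at the bar's end. Dotted lines mark the shares of all genes, 4.08% and 4.47%. The longest bars are those of the GBP and IRG GTPases (10 of 10) and the type I interferon-stimulated list (19 of 21).

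The type I interferon-stimulated genes rose together. Of the 21 measured, 19 rose, against 4.08% of all genes, and on all 19 every TNBS array lay above every untreated array (1.97% of all genes did so). The median change of the list was 1.65, with 0.00 over all genes. Ddx58, the viral RNA sensor RIG-I, changed by 0.71 ± 0.23 SE (limma adjusted p = 0.0584), and Mx2 by 0.09 ± 0.38 SE (adjusted p = 1). The other members span the pathway's receptors for viral RNA (Ifih1 0.53), its transcription factors (Stat2 1.10, Irf7 1.03, Irf9 1.11) and its effectors, given in turn below. Leaving out 1 array gave 16 to 20 calls, and leaving out the 4 squamous-high arrays gave 12, with a median change of 1.68.

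Oasl2, an OAS-like antiviral protein, read 7.08, 6.83, 7.52, 7.74 and 7.13 on the untreated knockout arrays. With TNBS its lowest, median and highest values were 9.39, 9.92 and 10.09. The groups were separated by more than 1.5 log2 units, and the log2 change was 2.59 ± 0.28 SE (limma adjusted p = 1.21e-05). Oas2, which makes the 2'-5' oligoadenylates that activate RNase L, read 2.75, 3.01, 3.95, 4.18 and 3.77 untreated. With TNBS it ran from 6.49 through a median of 7.28 to 7.71, a log2 change of 3.72 ± 0.50 SE (limma adjusted p = 0.000134). Its groups did not overlap. Usp18, the protease that removes ISG15 and restrains the interferon receptor, read 6.79, 6.96, 6.67, 7.16 and 6.70 untreated and 9.21, 10.08 and 10.62 at its lowest, median and highest with TNBS. Again no treated array reached down to the untreated ones, and the log2 change was 3.15 ± 0.44 SE (limma adjusted p = 0.000207). Irf9, the DNA-binding subunit of the type I interferon complex, rose from 7.95 to 8.64 untreated to 8.94 to 9.61 with TNBS, by 1.11 ± 0.16 SE (limma adjusted p = 0.000261). Ifi44l, an interferon-induced gene outside the list, read 3.00 to 4.62 untreated and 7.0 to 8.51 with TNBS and had a log2 change of 3.82 ± 0.50 SE (limma adjusted p = 0.000132).

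In the wild type none of these 21 genes passed the limma test (4 had an unadjusted p under 0.05), their median change was -0.28, and the difference between the genotypes' effects passed for 13 of the 21, all higher in the knockout (0.621% of all genes were). The difference was 2.92 ± 0.41 SE for Oasl2 (limma adjusted p = 0.00154), 4.06 ± 0.71 for Oas2 (0.00762) and 3.35 ± 0.63 for Usp18 (0.0101). It was 1.11 ± 0.23 for Irf9 (limma adjusted p = 0.0151), 1.91 ± 0.38 for Xaf1, a proapoptotic interferon target (0.0146), and 3.21 ± 0.73 for Ifi44l (0.0244). For Oas3 it was 3.00 and for Ifit3, which binds viral RNA with Ifit1, 2.97. With values below 5 set to 5 the difference was 2.59 for Oas2 (limma adjusted p = 0.0532) and 2.27 for Ifi44l (0.0986), and neither passed. The count of 13 was 11 to 16 with 1 array left out, and 1 at its lowest over all alternatives. Untreated wild-type arrays read 9.87, 9.01, 11.17, 10.58 and 10.69 for Oasl2 and 7.15, 5.23, 9.01, 8.58 and 8.88 for Oas2, spread widely and all above the untreated knockout. TNBS-treated wild-type arrays lay at 9.12 to 10.26 for Oasl2 and 6.72 to 8.05 for Oas2. For Oasl2, Oas2, Usp18, Irf9, Xaf1 and Ifi44l alike, every untreated knockout array lay below every wild-type array, and the treated knockout arrays lay within the range of the wild type. Levels were not tested between genotypes.

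**Figure D3:**
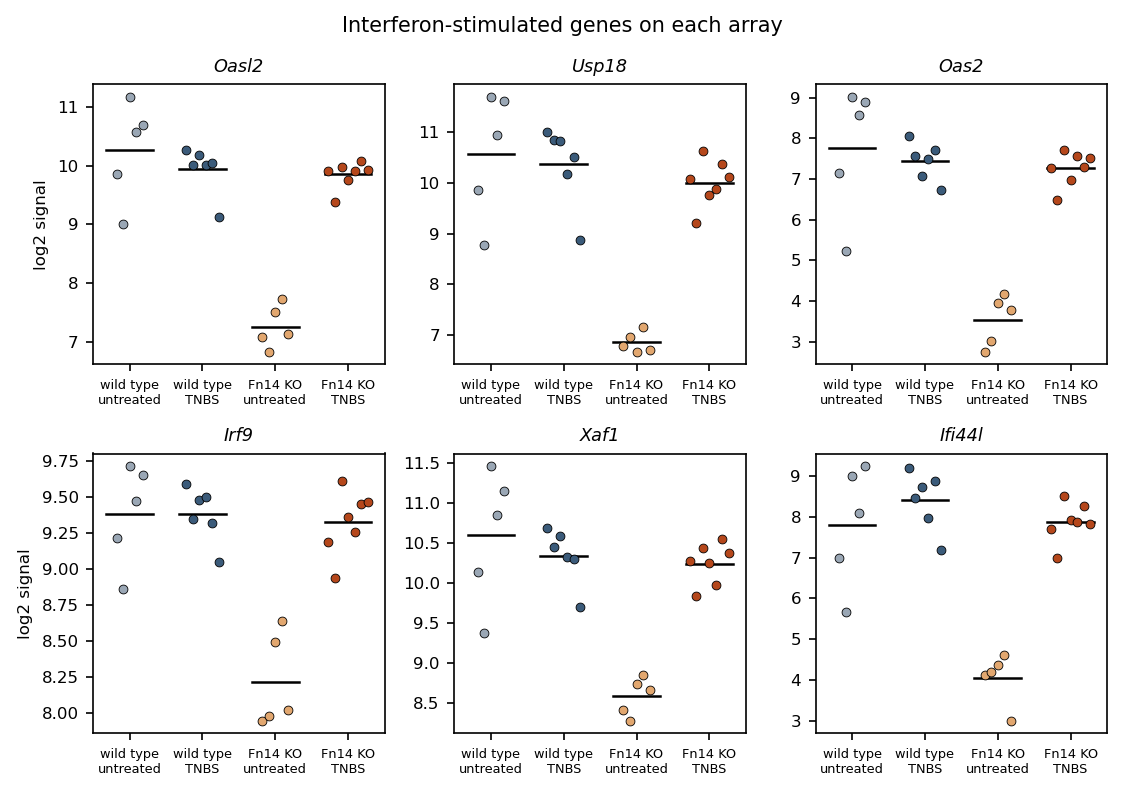
Each point is 1 array's deposited log2 value of an interferon-induced gene, in 4 groups by genotype and treatment, with a bar at the group mean. The 5 untreated knockout arrays lie below the 7 treated knockout arrays in each panel, at 6.67 to 7.16 against 9.21 to 10.62 for Usp18, for example.

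The transcripts of the interferons themselves were at or near the lowest value in the table, 2.17. Ifnb1 read 2.17 on all 12 knockout arrays, and Ifna4 and Ifng, chosen like Ifnb1 after their values were seen, read at most 2.19. A value this low is below what the array could measure and does not order the samples.

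All 10 GBP and IRG GTPases, which attack the vacuoles of intracellular pathogens, rose. Their median change was 1.57, and 9 of the 10 did not overlap between groups. Gbp3 read 6.96, 6.87, 7.71, 7.65 and 7.02 untreated and 8.64, 9.04 and 9.27 at its lowest, median and highest with TNBS. That is a log2 change of 1.78 ± 0.29 SE (limma adjusted p = 0.00107), with no overlap. Irgm2, which controls other IRG proteins, rose by 1.62 ± 0.30 SE (0.00284), Ifi47 by 1.53 ± 0.29 (0.00325), Gbp8 by 1.45 ± 0.26 (0.00213) and Gbp2 by 0.99 ± 0.18 (0.00219). In the wild type 3 of the 10 rose, and none of the 10 differed between genotypes at a limma adjusted p under 0.05 (6 had an unadjusted p under 0.05). With 1 array left out 9 or 10 passed, and 5 passed without the 4 squamous-high arrays, with a median of 1.63.

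Of 16 interferon gamma chemokines and regulators 5 rose (median 0.49). Cxcl9, which recruits CXCR3-bearing T cells, read 4.45, 4.65, 5.29, 3.93 and 4.60 untreated and 6.48, 6.86 and 7.78 at its lowest, median and highest with TNBS. It rose by 2.55 ± 0.34 SE (limma adjusted p = 0.000132) without overlap. Cxcl10, a ligand of the same receptor, rose by 2.05 ± 0.28 SE (0.000207), and Zbp1, a sensor of Z-form nucleic acid, by 1.88 ± 0.32 (0.00129). The count was 3 without the 4 squamous-high arrays and 3 in either covariate fit.

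Class I antigen presentation rose in 8 of its 11 genes (median 0.40). Nlrc5, the transactivator of class I genes, rose from 5.30 to 7.19 untreated to 7.84 to 8.93 with TNBS, by 2.07 ± 0.32 SE (limma adjusted p = 0.000682). Tap1, which carries peptides into the endoplasmic reticulum, rose by 1.26 ± 0.27 (0.00764) and Psmb9, an immunoproteasome subunit, by 1.01 ± 0.19 (0.00345). B2m, the light chain of class I molecules and already at 13.60 to 13.68 untreated, rose by 0.19 ± 0.04 (0.00596). Of the 11, 3 passed without the 4 squamous-high arrays, Tap1 not among them, and 5 passed with the Gapdh covariate.

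Of 13 genes of MHC class II presentation 5 rose (median 0.81), among them the class II beta chain H2-Ab1 by 0.88 ± 0.17 SE (limma adjusted p = 0.00383) and Cd74, the invariant chain, by 0.73 ± 0.16 (0.00713). That count rests on single arrays: it was 3 without untreated array 3, 4 or 5 or TNBS array 3, 4 or 6, and 10 without TNBS array 7. None of the 13 passed without the 4 squamous-high arrays or with the squamous covariate, and 2 passed with the Gapdh covariate.

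Mast cell genes gave the 2 largest rises among all genes. Of 16 measured, 10 rose and 1 fell, with a median change of 1.39, and 8 of the risers did not overlap between groups. A change in the number of cells of a type and a change in RNA per cell cannot be told apart in whole colon, here or for the other cell types below. Mcpt1, a chymase of mucosal mast cells, read 2.38, 2.45, 2.45, 4.02 and 2.45 untreated. With TNBS it read 11.84 at its lowest, 12.05 at its median and 12.38 at its highest. The log2 change was 9.33 ± 0.30 SE (limma adjusted p = 7.87e-14), and 9.24 in the wild type. Untreated values near the floor of 2.17 leave its size uncertain, and with values below 5 set to 5 it was 7.08. Mcpt2, a second mucosal chymase, read 2.87, 2.65, 2.41, 5.21 and 2.79 untreated and 11.95, 12.22 and 12.62 with TNBS, a log2 change of 9.05 ± 0.37 SE (limma adjusted p = 3.44e-12). Untreated array 4 was the highest of its group for both chymases, and still lay over 6 log2 units below every TNBS array. With any 1 array left out 11 members passed, and 10 passed without the 4 squamous-high arrays.

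Some other mast cell genes rose less in the knockout than in the wild type. Cpa3, the mast cell carboxypeptidase, read 2.24, 2.17, 2.17, 2.21 and 2.19 untreated and 6.16, 6.70 and 7.46 at its lowest, median and highest with TNBS, a change of 4.63 ± 0.21 SE (limma adjusted p = 1.8e-11). The wild type's was 6.00, and the difference was -1.36 ± 0.30 SE (limma adjusted p = 0.0225). The untreated values are at the floor, so these are not measures of size, and with values below 5 set to 5 the change was 1.83. Fcer1a, the alpha chain of the IgE receptor, read 2.17 on 4 untreated arrays and 2.35 on the fifth, and 4.91, 6.78 and 7.42 with TNBS. Its change of 4.31 ± 0.31 SE (limma adjusted p = 3.27e-08) is from the floor too. All 7 treated knockout arrays lay below all 6 treated wild-type arrays (8.07 to 9.14), and the difference in effect was -2.03 ± 0.45 SE (limma adjusted p = 0.0225). Mcpt4, the chymase of connective tissue mast cells, rose by 3.33 ± 0.24 SE, and Mcpt-ps1 by 1.62 ± 0.23, again from the floor, and neither rise passed with values below 5 set to 5. Their differences from the wild type were -1.63 ± 0.35 SE (limma adjusted p = 0.0177) and -2.10 ± 0.33 (0.00335). In all, 4 of the 16 members differed between genotypes, all lower in the knockout (1.37% of all genes were). With the Gapdh covariate the differences for Cpa3 (-1.21, limma adjusted p = 0.0698), Fcer1a (-1.83, 0.0676) and Mcpt4 (-1.53, 0.053) did not pass. The gene that fell was Kit, the stem cell factor receptor, also made by interstitial cells of Cajal, by -0.48 ± 0.11 SE (limma adjusted p = 0.012), from 8.83 to 9.32 untreated to 8.25 to 8.81, and it did not pass in either covariate fit (adjusted p = 0.109 and 0.0818).

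Of 9 eosinophil genes 1 rose. Rnase2a, an eosinophil-associated ribonuclease, read 3.68, 3.36, 3.18, 4.70 and 4.82 untreated and 8.11, 9.62 and 10.65 at its lowest, median and highest with TNBS, a log2 change of 5.36 ± 0.42 SE (limma adjusted p = 9.04e-08) without overlap. The wild type's change was 8.07, and the difference was -2.72 ± 0.60 SE (adjusted p = 0.0225, and 0.0511 without untreated knockout array 4). The eotaxins Ccl11 and Ccl24 changed by 0.46 ± 0.23 and 0.13 ± 0.15 SE, against 1.39 and 1.60 in the wild type. Siglecf, a receptor of eosinophils, changed by 0.21 ± 0.24 SE against 1.69. Of the 9 genes, 4 differed between genotypes, all lower in the knockout. With untreated array 1 left out 2 of the 9 passed in the knockout. Without the 4 squamous-high arrays 1 of the 9 passed. The granule genes Epx and Prg2, which define eosinophils, were at 2.17 or near it, with changes of 0.00.

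Targets of type 2 cytokines rose in 7 of 23 (median 0.23). Retnlb, the goblet cell protein RELM-beta, read 10.45, 10.69, 10.76, 11.39 and 10.77 untreated and 12.15, 12.63 and 12.93 at its lowest, median and highest with TNBS. It rose by 1.78 ± 0.17 SE (limma adjusted p = 1.34e-06) without overlap, and by 1.79 in the wild type. Retnla rose by 1.27 ± 0.28 SE (0.008) and the decoy receptor Il13ra2 by 1.34 ± 0.29 (0.00737). Arg1, an enzyme of alternatively activated macrophages, rose by 2.79 ± 0.68 SE (0.0154), with overlap. Clca1, an abundant secreted goblet cell protein, rose by 0.23 ± 0.04 SE (0.00134) from 13.80 to 14.03. A dimmer probe set of Clca1 rose by 0.92 (limma adjusted p = 8.93e-05 over all probe sets). Of the 23, 3 passed without the 4 squamous-high arrays, and Retnla, Il13ra2 and Arg1 were not among them. With the squamous covariate 2 passed and Retnla, Il13ra2 and Arg1 again did not, and with the Gapdh covariate 4 passed. Arg1 changed by 1.21 (limma adjusted p = 0.304) and 1.88 (0.132) in the 2 covariate fits.

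Genes of several secreted epithelial proteins rose. Of 23 epithelial antimicrobial genes 7 rose and none fell (median 0.24), and all 7 did not overlap. Ang4, a microbicidal ribonuclease of Paneth and goblet cells, read 7.75, 8.04, 7.26, 8.90 and 8.76 untreated and 12.01, 12.19 and 12.56 at its lowest, median and highest with TNBS. It rose by 4.12 ± 0.30 SE (limma adjusted p = 3.45e-08). Itln1, the intelectin that binds microbial sugars, read 8.87, 7.69, 8.42, 9.37 and 9.10 untreated and 11.73, 11.90 and 12.14 with TNBS, a rise of 3.23 ± 0.38 SE (3.88e-05). Pla2g2a, a phospholipase that kills bacteria, rose by 1.95 ± 0.23 SE (3.36e-05). The count of 7 was the same without the 4 squamous-high arrays.

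Among lipases and phospholipases 4 of 12 rose (median 0.44), and 4 passed without those arrays too. Pnliprp2, a lipase related to pancreatic lipase, read 5.54, 5.71, 5.41, 5.76 and 6.45 untreated and 10.20, 10.94 and 11.19 at its lowest, median and highest with TNBS, a rise of 4.98 ± 0.27 SE (limma adjusted p = 3.77e-10) without overlap. Pla2g4c, a cytosolic phospholipase, rose by 4.49 ± 0.57 SE (9.74e-05; 1.21 on a dimmer probe set, which did not pass), and Clps, the colipase, by 1.83 ± 0.17 (9.8e-07). Both Pnliprp2 and Clps are also pancreatic genes. The mean of the 11 pancreas markers was 5.57 on untreated array 5, 3.66 to 3.76 on the other 4 untreated arrays and 3.85 to 4.03 with TNBS. In the wild type it was 8.16 on TNBS array 3, 10.12 on TNBS array 6 and 3.72 to 3.98 on the other arrays. The part of pancreas in the Pnliprp2 and Clps values was not tested.

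Of 18 goblet cell genes 5 rose and 1 fell (median -0.03), among the risers Spink4 by 0.39 ± 0.05 SE (limma adjusted p = 3.94e-05) and Fcgbp, which binds mucus, by 0.27 ± 0.05 (0.00412), both already above 13 untreated. Without the 4 squamous-high arrays 5 of the 18 passed. Gsdmc2, a gasdermin of the colon epithelium, rose by 1.01 ± 0.14 SE (0.000154). The gasdermin pseudogene Gsdmcl-ps rose by 3.78 ± 0.27 SE in the knockout and by 5.67 in the wild type, a difference of -1.89 ± 0.39 SE (limma adjusted p = 0.0155, and 0.0519 with the Gapdh covariate). The potassium channel gene Kcnj16 read 2.17 on all 5 untreated arrays and 4.54 to 7.06 with TNBS, and its rise did not pass with values below 5 set to 5 (adjusted p = 0.0638). Spink5, a protease inhibitor of squamous epithelium, rose by 4.05 ± 0.54 SE (0.000142), and by 2.63 with the squamous covariate (0.00111).

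**Figure D4:**
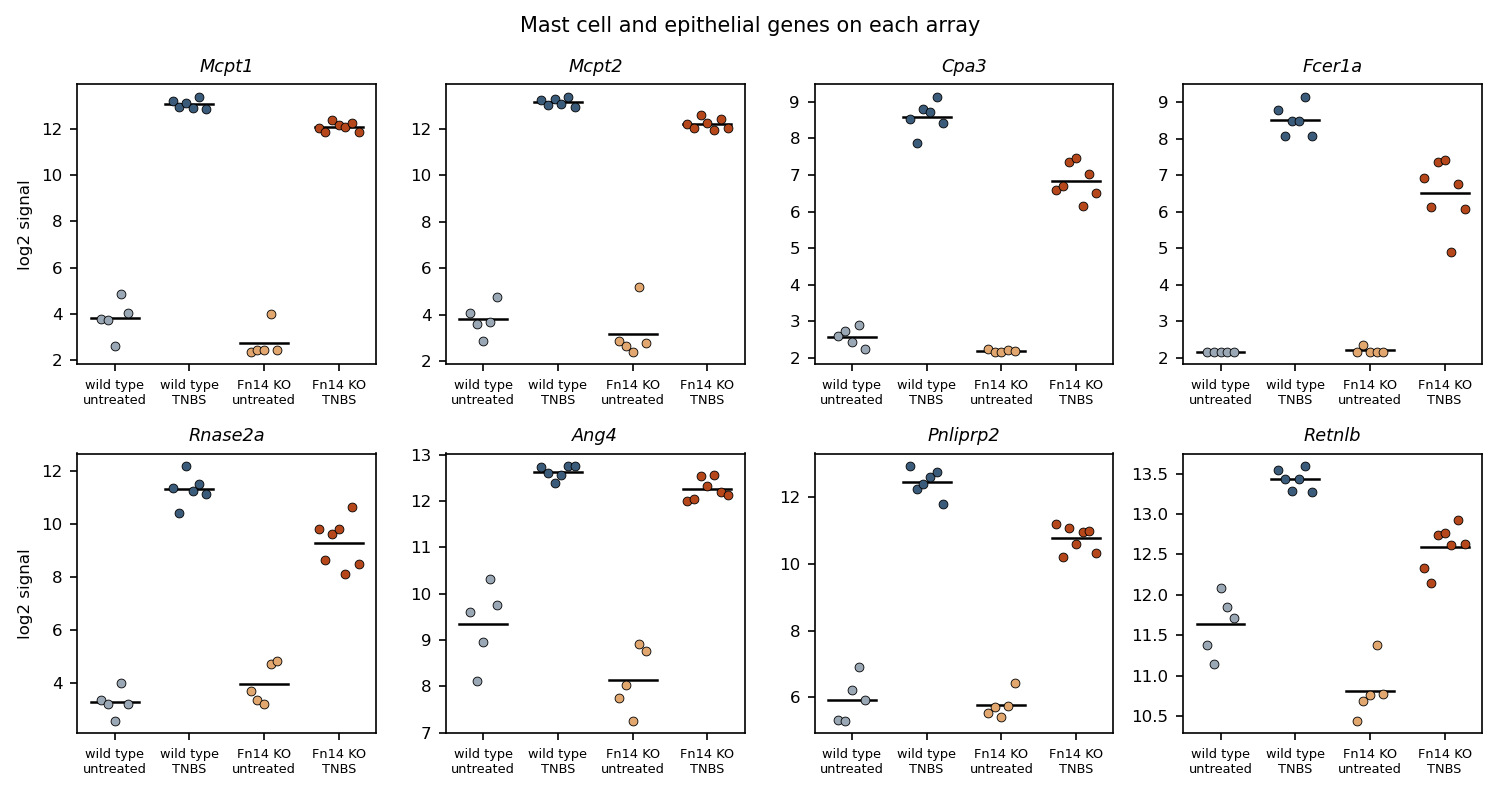
Each point is 1 array's deposited log2 value of a mast cell, eosinophil or epithelial gene, in 4 groups by genotype and treatment, with a bar at the group mean. The treated groups lie above the untreated ones in every panel, and for Fcer1a the treated knockout arrays (4.91 to 7.42) lie below the treated wild-type arrays (8.07 to 9.14).

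Several genes of lymphocytes rose. Gzma, a granzyme of cytotoxic T cells and natural killer cells, read 6.59, 6.23, 6.44, 5.61 and 5.10 untreated and 8.17, 9.0 and 9.82 at its lowest, median and highest with TNBS. The log2 change was 2.98 ± 0.31 SE (limma adjusted p = 7.67e-06), without overlap. Gzmb, a second granzyme, rose by 2.55 ± 0.27 SE (8.14e-06). With values below 5 set to 5 Gzmb changed by 0.48 and did not pass (limma adjusted p = 0.181). Of 14 cytotoxic genes 4 rose (median 0.10), 2 of them without the 4 squamous-high arrays. Among T cell genes 10 of 18 rose (median 0.56), including the co-receptor chain Cd8a by 1.67 ± 0.27 SE (0.000856) and Cd3d, of the receptor complex, by 1.38 ± 0.23 (0.00101). The T cell count was 5 without untreated array 3 or TNBS array 1 or 4, 6 without untreated array 4 or 5 or TNBS array 3 or 5, 2 without the 4 squamous-high arrays and 4 in either covariate fit.

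Plasma cell genes rose in 8 of 12 (median 0.58). Mzb1, a chaperone of immunoglobulin assembly, rose from 6.02 to 7.26 untreated to 7.61 to 9.32 with TNBS, by 1.78 ± 0.28 SE (limma adjusted p = 0.000621). Pou2af1, a B cell coactivator, rose by 1.24 ± 0.22 (0.00185) and Prdm1, the regulator of plasma cell fate, by 0.72 ± 0.13 (0.00226). The plasma cell count was 5 without untreated array 3 or 4, 3 without the 4 squamous-high arrays, Prdm1 not among them, and 4 and 5 in the squamous and Gapdh covariate fits. Bcl6, the regulator of germinal centre B cells, read 9.77, 9.85, 9.58, 9.26 and 9.35 untreated and 9.91, 10.33 and 10.49 at its lowest, median and highest with TNBS, a rise of 0.67 ± 0.12 SE (0.00176). The wild type's change was -0.20, and the difference of 0.86 ± 0.17 SE passed (limma adjusted p = 0.0123). Its rise did not pass without the 4 squamous-high arrays. Of the 17 B cell and follicle genes measured, Bcl6 among them, 4 rose in the knockout (median 0.76). That count was 1 to 11 with 1 array left out. In the wild type 7 of the 17 rose (median 1.10). Bcl6 was the only 1 of the 17 that differed between genotypes at a limma adjusted p under 0.05.

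Chemokines of the CC family rose in 8 of 17 genes (median 0.74). Ccl8, a monocyte and T cell attractant, read 6.41, 5.51, 6.54, 5.36 and 5.51 untreated and 8.74, 10.96 and 11.80 at its lowest, median and highest with TNBS. Its log2 change was 4.69 ± 0.41 SE (limma adjusted p = 5.72e-07) without overlap. Ccl5 rose by 2.13 ± 0.33 SE (0.000582), and Ccr2, the receptor of inflammatory monocytes, by 1.73 ± 0.23 (0.000126). Its ligands Ccl2 and Ccl12 rose by 1.12 ± 0.21 (0.00324) and 1.64 ± 0.33 (0.00477), with overlap. With the 4 squamous-high arrays left out 3 of the 17 passed, and Ccl2 and Ccl12 were not among them. With the squamous covariate 3 passed, again without Ccl2 and Ccl12 (adjusted p = 0.0541 and 0.0862), and Ccl2 did not pass with values below 5 set to 5 either.

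Macrophage genes rose in 11 of 18 (median 0.83) and complement genes in 10 of 14 (median 0.71). C2, of the classical pathway, read 4.95, 4.64, 5.40, 5.10 and 4.59 untreated and 6.04, 6.68 and 7.38 at its lowest, median and highest with TNBS, a rise of 1.75 ± 0.23 SE (limma adjusted p = 0.00013). The macrophage-made chains C1qa, C1qb and C1qc rose by 0.92 ± 0.21, 0.88 ± 0.18 and 1.03 ± 0.21, each with overlap between the groups. Cd55, which protects host cells from complement, rose by 0.57 ± 0.10 SE, less than the wild type's 1.23 (difference -0.66 ± 0.14 SE, limma adjusted p = 0.0165). With the 4 squamous-high arrays left out 1 macrophage gene and 2 complement genes passed, and the C1q chains were not among them. With the squamous covariate 1 and 2 passed, again without the C1q chains, and with the Gapdh covariate 7 and 4.

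Of 16 neutrophil genes 2 rose, against 4.08% of all genes, with a median of 0.04. S100a9, a calgranulin made by neutrophils and by inflamed squamous epithelium, read 5.55, 2.25, 3.24, 3.44 and 6.31 untreated and 5.60 to 10.36 with TNBS, a change of 4.14 ± 0.90 SE (limma adjusted p = 0.00769). The groups overlapped. S100a9 changed by 1.87 (adjusted p = 0.16) with the squamous covariate and by 3.00 (0.0712) with the Gapdh covariate, and no neutrophil gene passed in either fit or without the 4 squamous-high arrays. The chemokines Cxcl1 and Cxcl2 changed by 0.07 ± 0.44 and 1.41 ± 1.16 SE and did not pass. The granule genes Mpo and Elane, which define neutrophils, were at the floor of 2.17 on all untreated knockout arrays and at most 2.26 with TNBS. Of the 16 genes, 5 were at the floor on all 12 knockout arrays, where a change cannot be measured. With 1 array left out 1 to 3 passed: 1 without any untreated array but the first or without TNBS array 1, 2, 4 or 6, and 3 without TNBS array 7.

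Matrix genes rose broadly and modestly. Of 30 collagen and fibrotic matrix genes 19 rose and none fell, with a median of 0.46, and 11 did not overlap. Col1a1, the main chain of fibrillar collagen I, read 11.07, 10.79, 10.56, 10.64 and 10.77 untreated and 11.53, 11.74 and 11.86 at its lowest, median and highest with TNBS. It rose by 0.93 ± 0.11 SE (limma adjusted p = 4.48e-05). Col5a2, a regulator of fibril size, rose by 0.77 ± 0.14 SE (0.00182), Col3a1 by 0.43 ± 0.08 (0.00256) and Sparc, a collagen-binding protein, by 0.41 ± 0.07 (0.00116). Igf1, a growth factor for fibroblasts and smooth muscle, rose by 1.23 ± 0.20 SE (0.000844). The collagen count was 15 to 20 with 1 array left out and 3 without the 4 squamous-high arrays, with a median of 0.42, and Col5a2 and Col3a1 were not among the 3. With the squamous covariate 3 passed, without Col3a1. In the wild type 21 rose, and no member differed between genotypes at a limma adjusted p under 0.05 (3 had an unadjusted p under 0.05).

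Of 18 metalloproteinase and inhibitor genes 4 rose (median 0.35). These were Mmp10, Mmp9, Timp1, an inhibitor of these enzymes, and Adam8, by 1.80 ± 0.39, 1.72 ± 0.39, 1.74 ± 0.39 and 1.11 ± 0.22 SE (limma adjusted p = 0.00685, 0.00995, 0.0098 and 0.00427). Of these Mmp10 alone passed without the 4 squamous-high arrays, none with the squamous covariate, and Mmp10 and Adam8 with the Gapdh covariate. With the squamous covariate Mmp9 had an adjusted p of 0.155, and Timp1 changed by 1.12 (adjusted p = 0.171). Mmp9, Timp1 and Adam8 also did not pass with values below 5 set to 5. The interstitial collagenase Mmp13 was at 2.37 to 3.10 untreated and 2.65 to 4.39 with TNBS in the knockout, while its wild-type arrays went from 2.81 to 3.17 untreated to 4.81 to 6.80. The difference was -2.38 ± 0.46 SE (limma adjusted p = 0.0116). With values below 5 set to 5 the Mmp13 difference was -0.72 and did not pass (adjusted p = 0.326). For Mmp9 the wild type's change was 4.15 and the difference -2.43 ± 0.56 SE (adjusted p = 0.0291). The latter did not pass without untreated knockout array 1, 2 or 4 (0.0501, 0.0613 and 0.0578) or untreated wild-type array 4 (0.0547).

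Endothelial adhesion genes rose in 6 of 15 (median 0.43). Vwf, the platelet-binding protein of endothelium, read 6.76, 6.89, 6.25, 6.70 and 6.14 untreated and 7.28, 7.44 and 7.57 at its lowest, median and highest with TNBS, a rise of 0.88 ± 0.11 SE (limma adjusted p = 0.0001). Selp, the P-selectin on which leukocytes roll, rose by 1.43 ± 0.23 SE (0.000933), and Vcam1, to which they then adhere, by 0.88 ± 0.19 (0.00698). The count was 3 without untreated array 3 or 4, 2 without the 4 squamous-high arrays, Vcam1 not among them, and 2 and 3 in the squamous and Gapdh covariate fits. Alox5ap, which presents arachidonic acid to the leukotriene enzyme, rose by 1.00 ± 0.19 SE (0.00312), and did not pass without those 4 arrays or with the squamous covariate (0.64, 0.0743).

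The largest falls were in genes of lipid absorption, which mark small intestinal enterocytes and proximal colon. Of 26, 6 fell (median -0.53), against 4.47% of all genes. Apoa1, an apolipoprotein, read 9.13, 9.69, 8.36 and 8.87 on 4 untreated arrays and 3.20 on untreated array 5, and 2.17, 2.23 and 2.30 at its lowest, median and highest with TNBS. Its change was -5.63 ± 1.19 SE (limma adjusted p = 0.00632), with the treated arrays at the limit of measurement. Apoa4 followed the same arrays, reading 8.46, 10.12, 8.29, 9.04 and 3.15 untreated and at most 2.32 with TNBS (-5.52 ± 1.05 SE, adjusted p = 0.00324). Apoc3 (-4.81 ± 1.01 SE, 0.00621) was 7.67 to 9.05 on untreated arrays 1 to 4 and 2.94 on array 5. Fabp1, a fatty acid carrier of enterocytes, read 9.87, 11.33, 10.03, 9.16 and 4.39 untreated and 2.84 to 4.95 with TNBS (-5.49 ± 1.10 SE, 0.00477), so array 5 lay within the treated range. Mttp, which loads lipid onto apolipoproteins, fell by 2.01 on the log2 scale (0.0149). The wild type was as uneven: untreated arrays read 2.60, 2.30, 2.23, 6.60 and 10.39 for Apoa1, and its change of -2.49 did not pass (adjusted p = 0.2). None of the 26 passed in the knockout without the 4 squamous-high arrays, 3 passed with the squamous covariate and 4 with the Gapdh covariate. Fabp1 had an adjusted p of 0.0544 with the squamous covariate, and Mttp passed in neither covariate fit. The labels do not give the position along the colon from which each sample was cut. In the list of 10 genes that mark proximal or distal colon none passed the limma test, adjusted or at an unadjusted p under 0.05 (0 genes, median -0.04).

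Ion and water transport of colonocytes fell in 7 of 28 genes, against 4.47% of all genes (median -0.12, and none rose). Slc4a4, a bicarbonate cotransporter, read 11.72, 11.65, 12.16, 11.76 and 11.50 untreated and 10.95, 11.10 and 11.34 at its lowest, median and highest with TNBS, a change of -0.65 ± 0.11 SE (limma adjusted p = 0.00155) without overlap. Dimmer probe sets of Slc4a4 changed by -0.93, -1.08 and -1.53, and another, at the floor, by 0.00. Slc26a3, the chloride-bicarbonate exchanger, read 13.39 to 13.53 untreated and 13.11 to 13.27 with TNBS (-0.28 ± 0.05 SE, 0.00315). Its 3 dimmer probe sets changed by -0.48, -0.74 and -0.61. The chloride channel Cftr changed by -0.27 ± 0.06 SE (0.00642). The count was 4 without untreated array 4, 3 without the 4 squamous-high arrays and 4 with the squamous covariate, Cftr in neither. Trpm6, the magnesium channel of the colon, fell by 1.06 on the log2 scale (limma adjusted p = 0.0012), from 9.36, 9.55, 9.58, 9.37 and 9.0 to 7.89, 8.21 and 8.97 at its lowest, median and highest. Il22ra1, a subunit of the IL-22 receptor of epithelium, fell by 0.48 (0.000867), from 9.83 to 10.02 untreated to 9.31 to 9.59, without overlap.

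Smaller falls were spread over epithelial metabolism and junctions. Of all genes 4.47% fell. When only genes with a mean level above that of the median gene were fitted, 810 of 9097 fell. In the list for xenobiotics and bile acids, 8 of 36 fell (median -0.23), such as the glutathione transferase Gstt1 by 0.38 (limma adjusted p = 0.00289) and the glucuronosyltransferase Ugt2b34 by 0.24 (0.00877). Of 26 genes of fatty acid oxidation 6 fell (median -0.22), among them Acadvl, the first enzyme of mitochondrial oxidation of long chains, by 0.31 (0.00655), and Ehhadh, of the peroxisome, by 0.55 (0.0144). Of 17 tight junction genes 5 fell (median -0.11), among them cingulin, Cgn, by 0.27 (0.00284) and Tjp3 by 0.32 (0.0106). Of 27 genes of mitochondrial respiration 5 fell (median -0.09), with Cox7a2 down by 0.12 (0.00646). A dimmer probe set of Cox7a2 changed by 0.01 and did not pass. The counts of these lists are unsteady. With 1 array left out they were 3 to 9, 3 to 9, 2 to 7 and 1 to 7. The counts without the 4 squamous-high arrays were 2, 0, 0 and 3, those with the squamous covariate 2, 0, 1 and 2, and those with the Gapdh covariate 3, 2, 3 and 2. For the xenobiotic list every untreated array but the fifth and TNBS arrays 3 to 6 lowered the count by more than 1.5 times, and for fatty acid oxidation untreated array 4 did. For tight junctions these were untreated arrays 2, 3 and 5 and TNBS arrays 4 and 5, and for respiration untreated arrays 2, 3 and 4 and every TNBS array but 2 and 7.

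Outside the lists, genes with large falls and no overlap between groups included Zfp386, a zinc finger gene (-1.51 ± 0.29 SE, limma adjusted p = 0.00324), the neuronal potassium channel Kcna1 (-1.34 ± 0.29, 0.00808) and Dpp10, a subunit of potassium channels (-1.09 ± 0.24, 0.0085). Iyd, an iodotyrosine deiodinase, fell by 1.01 on the log2 scale (0.00585), and did not pass without the 4 squamous-high arrays. Other falls of this kind were those of Tbc1d24, Dqx1, Tmem35a, Vstm5, Capsl and Minar1, between -1.63 and -0.97. The -1.63 was that of Minar1, which lay near the floor. With values below 5 set to 5 Minar1 changed by -0.0048 (limma adjusted p = 0.428). Tbc1d24 and Dqx1 did not pass without the 4 squamous-high arrays, nor Tbc1d24 with the Gapdh covariate (adjusted p = 0.0746). Dimmer probe sets of Zfp386 and Dqx1 changed by -0.31 and -0.27 and did not pass.

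**Figure D5:**
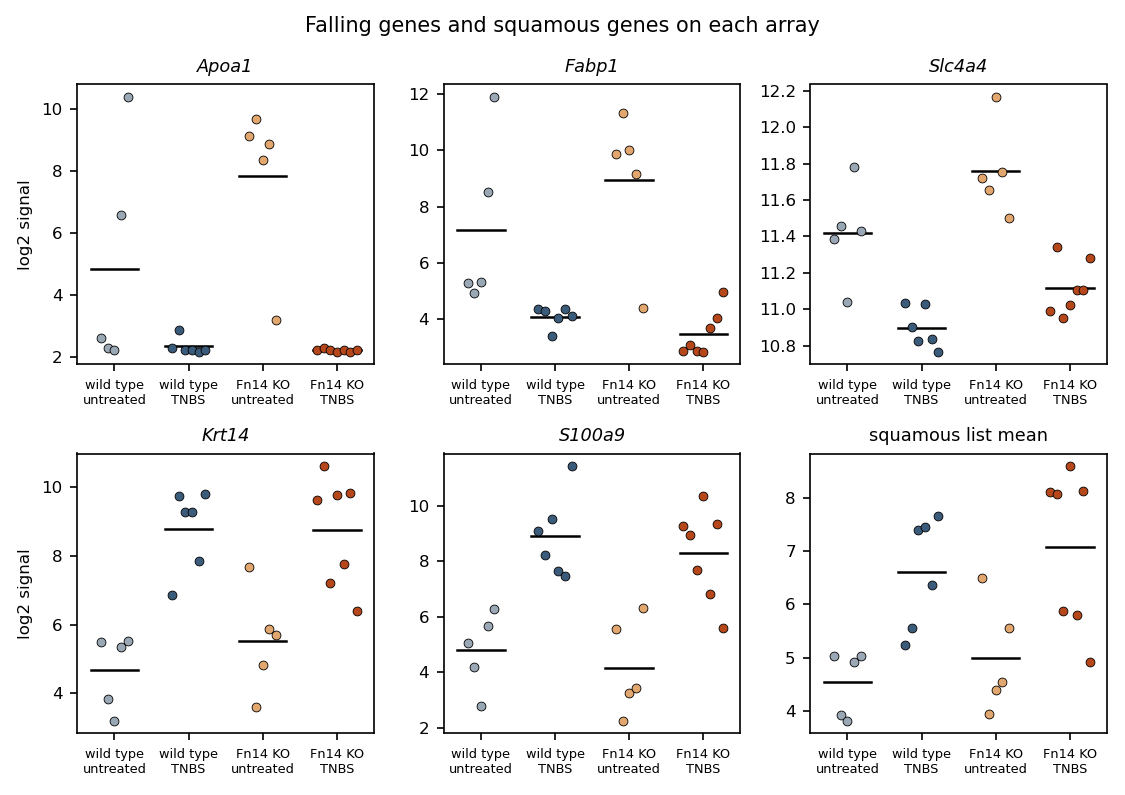
Each point is 1 array's deposited log2 value of a gene, or the mean of the 21 squamous epithelium markers, in 4 groups by genotype and treatment, with a bar at the group mean. Apoa1 and Fabp1 are high on 4 of 5 untreated knockout arrays and low on the fifth and on all treated ones, and 4 of 7 treated knockout arrays lie above all untreated ones for the squamous mean.

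Clock genes moved both ways. Of 17, 5 rose and 3 fell (median 0.40). Nr1d1, the repressor REV-ERB-alpha, rose by 1.63 ± 0.39 SE (limma adjusted p = 0.0135) and Per1 by 0.97 ± 0.23 (0.0129), while Arntl, which encodes the activator BMAL1 that Nr1d1 represses, changed by -1.44 ± 0.36 (0.0169, and 0.053 without untreated array 3) and Cry1 by -0.68 ± 0.14 (0.00512). The groups overlapped for all 4. The count was 5 without untreated array 2 or 3, 1 without the 4 squamous-high arrays, none of these 4 among them, and 0 and 2 in the squamous and Gapdh covariate fits. Time of day at harvest is not given in the labels.

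Several lists had few calls or none. None of 33 cell cycle and DNA replication genes passed the limma test (6 had an unadjusted p under 0.05, median -0.19, and 2 of the 33 lay above 0), and at most 1 did with any 1 array left out. That 1 came with untreated array 5 or TNBS array 4, 5 or 7 left out, or with the Gapdh covariate. None passed without the 4 squamous-high arrays. Of 10 genes of the Th17 and IL-22 axis, Il22ra1 alone passed, also without the 4 squamous-high arrays, and 4 were at the lowest value on all 12 arrays. Of 19 Fn14 and NF-kappaB genes 2 rose in the knockout (median 0.07), and 11 rose in the wild type (median 0.24). None of the 19 differed between genotypes at a limma adjusted p under 0.05 (6 had an unadjusted p under 0.05). The count of 2 was 0 without untreated array 3, 4 without TNBS array 7, 1 without untreated array 2 or 4 or any other TNBS array, and 0 without the 4 squamous-high arrays and in either covariate fit.

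Among the largest differences between the genotypes in the other direction were those of 2 genes that rose in the wild type and were already high in untreated knockout. S100g, calbindin-D9k, a calcium-binding protein of absorptive epithelium, read 12.63, 12.52, 12.42, 12.63 and 12.19 in untreated knockout and 11.95, 12.18 and 12.69 at its lowest, median and highest with TNBS. The groups overlapped (log2 change -0.25 ± 0.28 SE, limma adjusted p = 0.717). In the wild type it read 7.14, 8.68, 9.48, 7.87 and 7.80 untreated and 11.19 to 12.14 with TNBS, still below every untreated knockout array, and the difference of effects was -3.83 ± 0.40 SE (limma adjusted p = 8.03e-05). Ctps2, a CTP synthase gene, read 9.02 to 9.39 untreated and 9.14 to 9.35 with TNBS in the knockout, and 5.87, 5.87, 5.97, 6.09 and 6.26 untreated against 9.11 to 9.42 in the wild type. The difference was -3.28 ± 0.10 SE (limma adjusted p = 5.35e-14). For Ctps2 only the untreated wild-type group stood apart from the other 3 groups.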

How the data were processed

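Colon RNA was measured on 23 Affymetrix mouse arrays. The deposited values are log2 expression per probe set. RMA and GCRMA are named in the submitters' processing notes, with no version, and the labels do not say which of them made these values. The lowest deposited log2 value is 2.17 and holds 27.9% of all values. It acts as a floor, so the size of a change from it is not measured. Of 45101 probe sets, 34958 name 1 gene in the platform annotation, 932 several and 9211 none. The probe set of highest mean was kept per gene, giving 18194 genes. limma 3.58.1 (R 4.3.3, lmFit and eBayes) was fitted to all 23 arrays with 4 group means, which share 1 estimate of the spread, and p-values were Benjamini-Hochberg adjusted over 18194 genes with a threshold of 0.05. The script was checked on simulated data.

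Genes were named by rank: Tnfrsf12a, the 14 largest rises and 14 largest falls without overlap between groups, the 6 largest differences each way, and up to 5 of smallest p per list, passing over immunoglobulin, T cell receptor, Gm, Rik and clone names. Other names were chosen after their values were seen. The members and lists were chosen with earlier results of these data known. The labels do not say whether same-numbered arrays of the 2 knockout groups are paired, and the main fit did not pair them. Their deviations correlated at 0.29, -0.12, 0.21, -0.22 and -0.17, which does not settle it. Motifs were searched in RefSeq promoters of build GRCm38.p6. Alternatives covered the fit, filters, scaling, probe sets, covariates for other tissue and RNA integrity, a replicate block and leaving out arrays. Alternatives that leave out wild-type arrays, and the 4 knockout TNBS arrays of high squamous mean, were added after seeing the data.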

Additional observations from a re-analysis of the deposited data

Results flagged for a closer look

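Single arrays stood apart from their group on 8 of the 118 groups of values tested, and chance flags about 1 in 20. Untreated knockout array 4 read 4.02 for Mcpt1 (the others 2.38 to 2.45) and 5.21 for Mcpt2 (2.41 to 2.87). Untreated knockout array 5 read 3.20 for Apoa1 (8.36 to 9.69) and carried the highest pancreas mean of the knockout arrays. TNBS knockout array 5 read 3.84 for Tnfrsf12a (4.03 to 4.17) and 11.01 for Cgn (10.68 to 10.76). TNBS wild-type array 6 read 9.12 for Oasl2 (10.01 to 10.26). For Fcer1a, untreated knockout array 2 at 2.35 and untreated wild-type array 5 at 2.17 stood apart from values at the floor of the table.

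The effect of TNBS differed between the genotypes, knockout minus wild type, by a limma adjusted p under 0.05 for the following genes the text names. It was higher in the knockout for Oas2 (4.06), Usp18 (3.35), Ifi44l (3.21), Oas3 (3.00), Ifit3 (2.97), Oasl2 (2.92), Xaf1 (1.91), Irf9 (1.11) and Bcl6 (0.86). It was lower in the knockout for S100g (-3.83), Ctps2 (-3.28), Rnase2a (-2.72), Mmp9 (-2.43), Mmp13 (-2.38), Mcpt-ps1 (-2.10), Fcer1a (-2.03), Gsdmcl-ps (-1.89), Mcpt4 (-1.63), Cpa3 (-1.36) and Cd55 (-0.66). Differences for Pnliprp2 (-1.53), Minar1 (-1.53) and Fcgbp (-0.29) lay close to the threshold, and each lost its call when any of several single arrays was left out. Those for Oas2, Ifi44l, Mmp13 and Mcpt-ps1 did not pass with values below 5 set to 5.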

How the results depend on the processing

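The count of genes changed in the knockout was 1556. It was 856 in the knockout arrays fitted alone, 176 when a change of at least 1.2-fold was required, 575 with the squamous mean as a covariate, 813 with the Gapdh 3' to 5' difference as a covariate, and 510 without the 4 squamous-high arrays, an alternative chosen after seeing the data. Leaving out 1 array gave 1014 to 1835. The count of genes whose effect differed between genotypes was 363. It was 547 with arrays centred on their medians, 14 at the 1.2-fold minimum, and 213 to 443 with 1 array left out. The replicate number as a block within genotype gave 829 and 40, with 1 of 5 numbers correlating best with its own. Among 138 calls of named genes, 68 were lost at the 1.2-fold minimum, 44 under the block, 32 under the squamous covariate, 23 under the Gapdh covariate and 17 with values below 5 set to 5, and 43 of 115 without the 4 squamous-high arrays. No called value of a named gene changed sign under any alternative run. Genes at the floor have no measured size.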
